A study of Bos taurus and Ovis aries and Capra hircus with 18 samples.

Results

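The genes described here are SLC16A6, SLC7A8, GREB1 and MSRA, 4 of the 13260 genes that could be matched between cattle, sheep and goat. They were selected on the mean level in muscle: the mean level in cattle muscle was more than 10-fold that in sheep muscle and more than 10-fold that in goat muscle. Muscle values of the 4 genes therefore describe the choice, and no test is given for them. SLC16A6 and SLC7A8 are membrane carriers, MSRA is an enzyme, and GREB1 is a gene named for its response to oestrogen.

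Polyadenylated RNA of adult animals was sequenced from brain and from muscle, and the 18 libraries fall into 6 groups. These are cattle muscle, sheep muscle, goat muscle, cattle brain, sheep brain and goat brain, each with libraries A, B and C. The labels give neither the brain region nor the muscle, no treatment or genotype, and no statement that the letters stand for separate animals, so p-values measure only the spread between these libraries. Totals ran from 20730803 to 58514630 counts per library. Sheep brain C stood apart, with a mean Spearman correlation of 0.812 with its own group and long gene models low by 1.49 on the log2 scale relative to short ones, and goat muscle C followed with 0.944. Levels are CPM per kb, meaning counts scaled to the library total (CPM) after trimmed-mean (TMM) scaling, divided by the exonic length in kilobases of the gene model in that species. Errors after ± are SD for levels and SE for log2 differences, with n = 3 libraries per group. A call needs a Benjamini-Hochberg (BH) p below 0.05, adjusted over the 12128 genes tested with edgeR, and a log2 difference of at least 1 in size.

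SLC16A6 belongs to the monocarboxylate carrier family, whose members move small organic acids across the plasma membrane. Its human protein carries taurine, and its zebrafish counterpart is needed for release of ketone bodies from the liver. SLC7A8 is the light chain of an exchanger of neutral amino acids that reaches the cell surface bound to the heavy chain SLC3A2. MSRA reduces oxidised methionine in proteins with electrons from thioredoxin, and human GREB1 is an early target and partner of the oestrogen receptor in breast cancer cells. In muscle, carriers of these families take up and release amino acids, lactate and ketone bodies as fuel and protein turnover demand.

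The exonic length of the deposited gene models differed between species, most for SLC7A8 and MSRA. In cattle (ARS-UCD1.2, the only build named by the submitters), SLC16A6 (ENSBTAG00000003074) lies on chromosome 19 from 61867803 to 61877805 on the plus strand, with 6 exons and 1896 exonic bases. Its partners had 5 exons and 1590 bases in sheep and 7 exons and 2262 bases in goat, and all shared consecutive exons of 144, 129 and 792 bases. SLC7A8 (ENSBTAG00000007415) spans chromosome 10 from 21683779 to 21737239 on the plus strand, with 12 exons and 4270 exonic bases, of which the last exon holds 2125. The last exon held 155 of 1907 bases in the sheep model and 3046 of 4682 in the goat model, while 10 and 9 exon lengths equalled those of cattle in order.

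GREB1 (ENSBTAG00000015402) lies on chromosome 11 from 86232489 to 86365887 on the minus strand, with 33 exons and 6528 exonic bases. Its exonic lengths were the most alike, with 34 exons and 5903 bases in sheep, 32 exons and 5835 bases in goat, and 29 and 30 exon lengths shared with cattle, although the cattle model spans 133399 bases against 67085 in sheep and 66996 in goat. MSRA (ENSBTAG00000021632) spans chromosome 8 from 8755177 to 9169658 on the minus strand, with 7 exons and 1663 exonic bases. The sheep model had 8 exons and 1101 bases, the goat model 6 exons and 684 bases, and each shared 4 exon lengths with cattle. Of the partners, those of SLC7A8 were found only in the second, more permissive pass of the matching, and those of the other genes in the first.

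**Figure D1:**
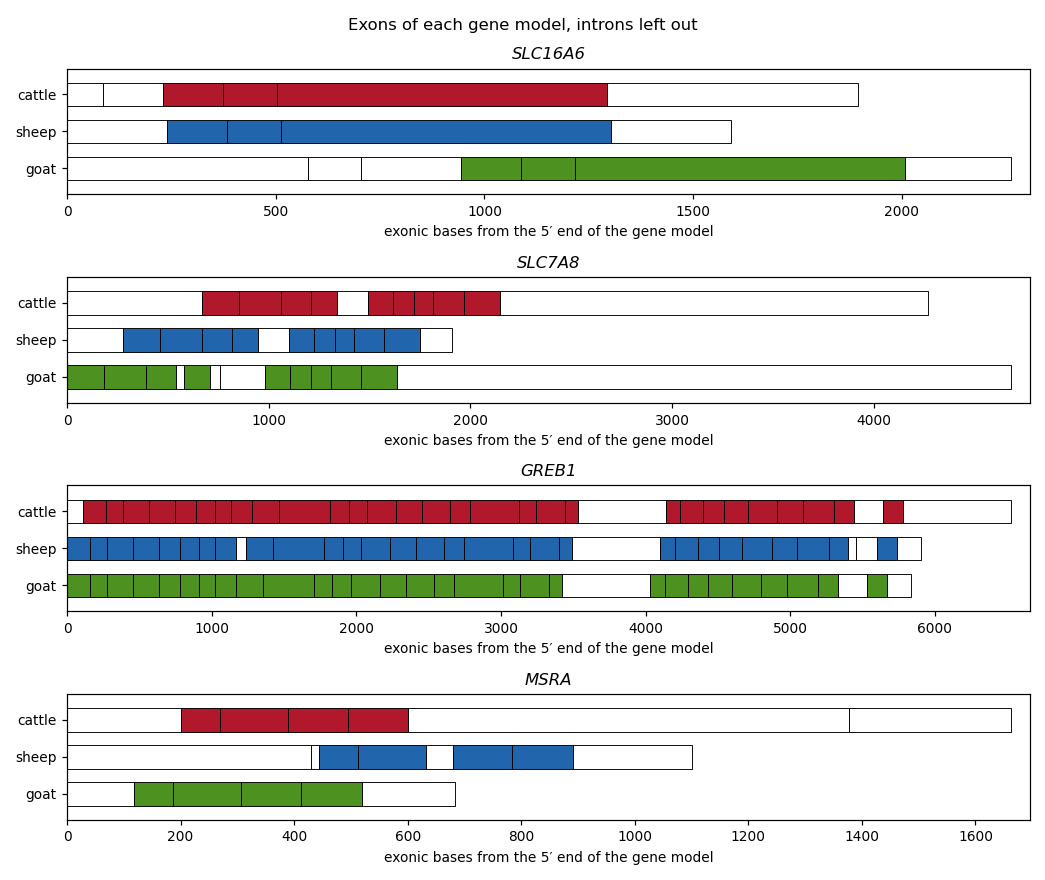
Exons of each gene model laid end to end from the 5′ end, introns left out, for cattle (top), sheep (middle) and goat (bottom); the x axis is exonic bases, and filled exons have a length present in all 3 species. The outer, unfilled exons differ most, with totals of 4270, 1907 and 4682 bases for SLC7A8 and 1663, 1101 and 684 for MSRA.

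SLC16A6 was abundant in cattle muscle and low in muscle of the other species. Libraries A, B and C of cattle muscle held 142, 426 and 113 CPM per kb, from 5886 to 24148 counts. Sheep muscle held 1.43, 1.25 and 1.45 CPM per kb from 77 to 85 counts, and goat muscle 0.897, 1.26 and 0.609 from 25 to 65 counts. Every cattle library lay above every sheep and goat library, and cattle muscle B stood well above A and C. Ranked per length within its own species' models, SLC16A6 stood between place 190 and 820 in cattle muscle, between 11209 and 11661 in sheep muscle and between 11576 and 12986 in goat muscle. The ratio of means was 165 over sheep and 246 over goat, or 92.4 and 138 without cattle muscle B.

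SLC7A8 showed the same split, with sheep muscle between the others. Cattle muscle held 116, 289 and 269 CPM per kb, sheep muscle 11.4, 4.46 and 5.66, and goat muscle 1.36, 0.561 and 1.75. The cattle mean of 224 ± 94.4 CPM per kb compares with 7.16 ± 3.69 in sheep and 1.22 ± 0.607 in goat, ratios of 31.4 and 183. No libraries of different species overlapped. The best rank per length in muscle was 281 in cattle, 5448 in sheep and 10705 in goat.

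GREB1 was the least abundant of the 4 in cattle muscle. It held 19.0, 22.9 and 38.7 CPM per kb in cattle muscle, 1.12, 0.937 and 3.23 in sheep muscle, and 0.213, 0.300 and 0.236 in goat muscle, where 25 to 40 counts lay behind each value. Library C was the highest in cattle and in sheep, and the species did not overlap. The ratio of means was 15.3 over sheep and 108 over goat. Without sheep muscle C the ratio over sheep was 26.2, and without cattle muscle C it was 11.9.

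MSRA had the tightest values of the 4. Cattle muscle held 107, 120 and 114 CPM per kb, sheep muscle 4.01, 3.45 and 3.42, and goat muscle 4.52, 3.84 and 4.59, the last from 57 to 67 counts. Sheep and goat overlapped each other far below cattle. The cattle mean of 113 ± 6.54 CPM per kb was 31.2 times that of sheep at 3.62 ± 0.332 and 26.2 times that of goat at 4.32 ± 0.413.

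**Figure D2:**
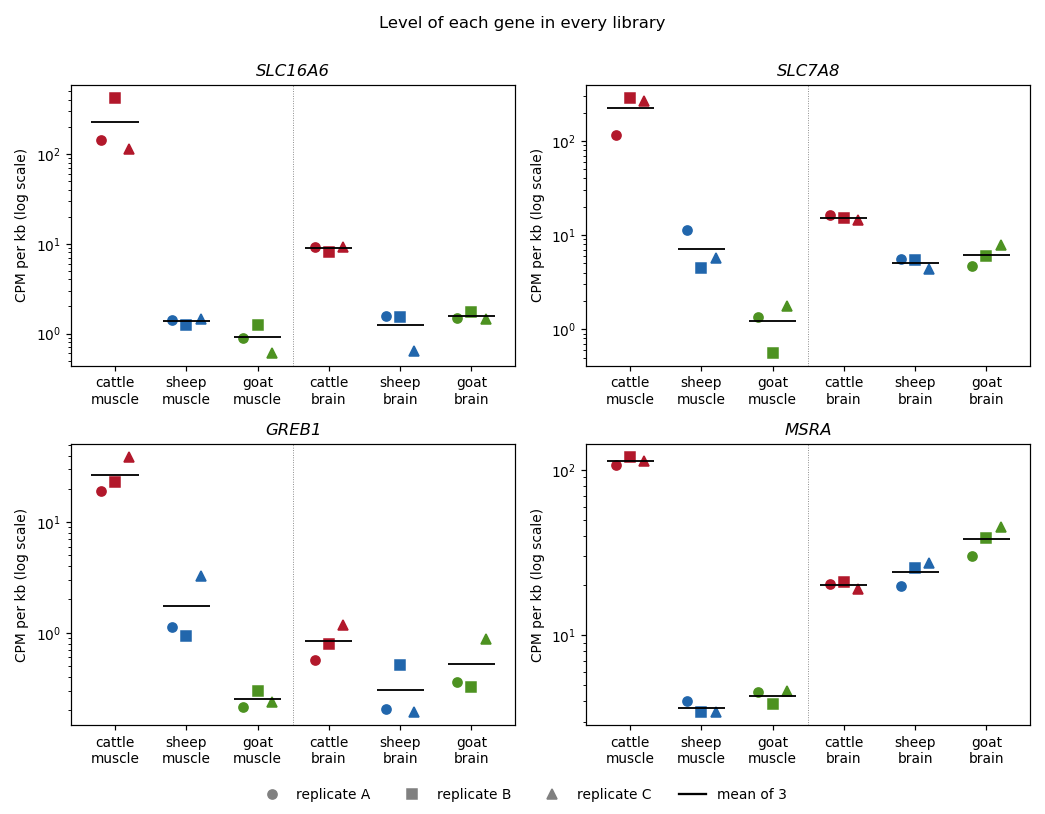
Level of each gene in every library, in CPM per kb on a log axis, for muscle (left of the dotted line) and brain of cattle, sheep and goat; markers are libraries A, B and C and bars are means of 3. Cattle muscle is highest in each panel, and only in the MSRA panel do sheep and goat brain lie above cattle brain on average.

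Crossing the 10-fold limit was not rare. Of the 12128 genes tested, 215 (1.77%) exceeded it against both other species, 171 of them with a symbol, while 272 lay more than 10-fold below both. Ranked by the smaller of their ratios among those 171, SLC16A6 came 72nd, SLC7A8 91st, MSRA 101st and GREB1 131st. CCDC170 at 10.01 and IRAK2 at 10.03 were just inside the limit, and CDH2 at 9.95 and MTTP at 9.86 just outside. In these contrasts 12.7% of all genes were called higher in cattle than in sheep muscle, and 16.1% higher in cattle than in goat muscle.

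The rule used muscle means and no brain values, but brain and muscle values of a species share its gene models. The 4 genes were also chosen with earlier results of these data known. In brain, 3 of the 4 genes were called higher in cattle than in sheep, where 8.40% of all genes were. Of the 215 genes over the limit in muscle, 15.3% were called higher in cattle brain than in both others, against 3.62% of all genes. SLC16A6 held 9.30, 8.08 and 9.23 CPM per kb in cattle brain, 1.55, 1.54 and 0.634 in sheep brain and 1.49, 1.75 and 1.44 in goat brain. Cattle brain lay above all other brain libraries, while sheep and goat overlapped. The log2 difference was 2.83 ± 0.45 for cattle minus sheep and 2.51 ± 0.44 for cattle minus goat (edgeR, BH adjusted p = 0.000293 and 0.000524), with 3 of 3 cattle libraries higher in both. Left-out libraries moved these to between 2.60 and 3.02 and between 2.45 and 2.60, and the lowest value against sheep came without sheep brain C.

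Against goat brain, 2 of the 4 genes, SLC16A6 and SLC7A8, were called higher in cattle brain, where 11.0% of all genes were. SLC7A8 held 16.2, 15.1 and 14.5 CPM per kb in cattle brain, 5.61, 5.38 and 4.32 in sheep brain and 4.72, 6.04 and 7.84 in goat brain. All cattle libraries lay above the rest. The log2 difference was 1.58 ± 0.42 for cattle minus sheep and 1.30 ± 0.41 for cattle minus goat (edgeR, BH adjusted p = 0.00953 and 0.0269). The second of these calls was lost without any one of cattle brain A, B or C, goat brain A or goat brain B, at log2 differences of 1.14 to 1.34 and adjusted p of 0.0512 to 0.107 in edgeR, and without the length correction, at 0.86. With library totals alone both calls were lost, at 0.80 over sheep and 0.65 over goat (edgeR, BH adjusted p = 0.112 and 0.215).

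GREB1 was low in every brain library. It held 0.568, 0.797 and 1.16 CPM per kb in cattle brain, 0.203, 0.511 and 0.191 in sheep brain, and 0.361, 0.327 and 0.875 in goat brain. Cattle lay above sheep without overlap and overlapped goat. The log2 difference was 1.47 ± 0.53 for cattle minus sheep (edgeR, BH adjusted p = 0.0449) and 0.69 ± 0.52 for cattle minus goat, which was not called (edgeR, BH adjusted p = 0.354). The call against sheep was lost without cattle brain B or C, sheep brain A or C, or goat muscle C (1.17 to 1.51, edgeR adjusted p of 0.0506 to 0.160, and 0.102 without sheep brain C), and without sheep brain B the difference was 2.09. It was also lost without the length correction (1.18), with limma-voom (1.53), with first-pass matches only (1.41), with the groups compared only (1.498) and with library totals alone (0.70).

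MSRA ran the other way in brain. Cattle brain held 20.5, 21.1 and 19.0 CPM per kb, sheep brain 19.9, 25.6 and 27.2, and goat brain 30.3, 38.6 and 44.9. Cattle overlapped sheep, and all cattle libraries lay below all goat libraries. The log2 difference was -0.26 ± 0.20 for cattle minus sheep (edgeR, BH adjusted p = 0.344) and -0.91 ± 0.20 for cattle minus goat (edgeR, BH adjusted p = 0.00329). The second passed the p threshold and missed the fold threshold, and it was called, at -1.05, without goat brain A. Its direction rests on the length correction, since without it the difference was 0.062.

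**Figure D3:**
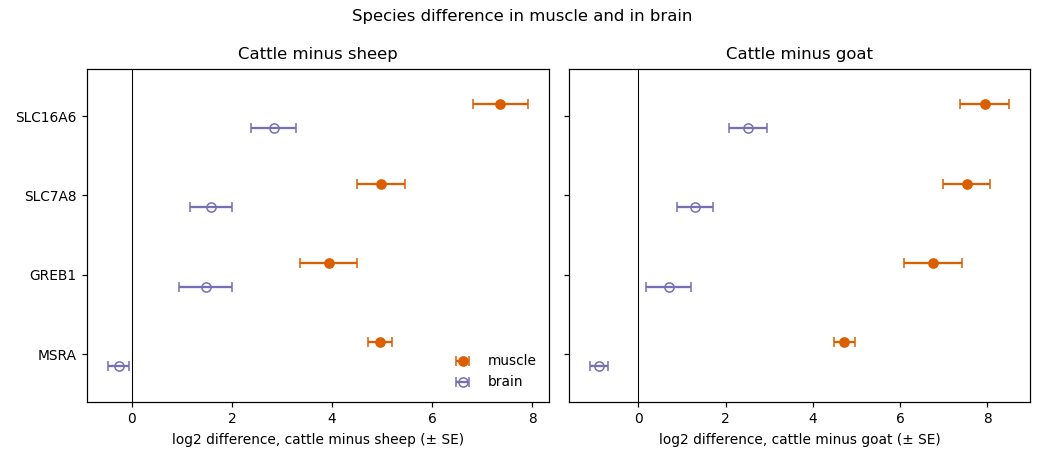
Log2 difference of cattle minus sheep (left) and cattle minus goat (right) for each gene, in muscle (filled) and brain (open), with SE from the fit of 18 libraries. Muscle values, which chose the genes, lie between 3.93 and 7.93, and brain values between -0.91 and 2.83.

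Sheep and goat muscle took part in the choice, so their difference is also given as values only. SLC7A8 was 2.55 ± 0.44 higher on the log2 scale in sheep than in goat muscle, and GREB1 2.81 ± 0.57 higher, with 3 of 3 sheep libraries above all goat libraries in both. The GREB1 difference was 2.04 without sheep muscle C, and that of SLC7A8 was 1.39 without the length correction. SLC16A6 gave 0.57 ± 0.45 and MSRA -0.25 ± 0.21, with overlapping libraries, and the sign for MSRA turned without the length correction, to 0.57. Over all genes 12.3% were called higher and 10.2% lower in sheep than in goat muscle, 22.5% in all.

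In brain, 0 of the 4 genes were called between sheep and goat, where 17.6% of all genes were called in either direction, 12.7% higher in sheep and 4.82% lower. MSRA was the only one of them under the p threshold, at -0.65 ± 0.20 for sheep minus goat (edgeR, BH adjusted p = 0.0326). All 3 sheep libraries lay below all goat libraries, but without the length correction the difference was 0.17. SLC16A6, SLC7A8 and GREB1 gave -0.32, -0.28 and -0.78, with overlapping libraries. Without the length correction SLC7A8 was called lower in sheep brain, at -1.45 (edgeR, BH adjusted p = 0.0232).

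Muscle set against brain within a species uses a single gene model, so its length cancels. Because the muscle libraries are those that chose the genes, these ratios are given as values. In cattle, muscle was above brain in every library for each gene, with ratios of means of 25.5 for SLC16A6, 14.7 for SLC7A8, 31.9 for GREB1 and 5.61 for MSRA. Without cattle muscle B the ratio for SLC16A6 was 14.3. In sheep the ratios were 1.11, 1.40, 5.84 and 0.149 in the same order, and in goat 0.591, 0.198, 0.480 and 0.114. The sheep ratio for GREB1 was 3.40 without sheep muscle C and 8.94 without sheep brain B, and the goat ratio 0.727 without goat brain C. GREB1 was thus above brain in all sheep muscle libraries as well, MSRA was below brain in all sheep and goat muscle libraries, and SLC16A6, SLC7A8 and GREB1 were below brain in all goat muscle libraries.

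The ratio of muscle to brain in cattle, divided by that in the other species, was smallest for GREB1 over sheep at 5.46. For SLC16A6 it was 23.0 over sheep and 43.2 over goat, or 12.9 and 24.3 without cattle muscle B, for SLC7A8 10.5 and 74.5, and for MSRA 37.5 and 49.3. GREB1 reached 66.5 over goat, or 43.9 without goat brain C, and over sheep 9.37 without sheep muscle C and 3.57 without sheep brain B.

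The order of groups for each gene began with cattle muscle. For SLC16A6 and SLC7A8 cattle brain came next, and it overlapped no group below it. The remaining groups of SLC16A6, from goat brain at 1.56 down to goat muscle at 0.921 CPM per kb, overlapped their neighbours. For SLC7A8, sheep muscle, goat brain and sheep brain overlapped in turn, and goat muscle lay below them. For GREB1 sheep muscle came second at 1.76 and overlapped cattle brain, as did each later pair of neighbours. For MSRA goat brain came second at 37.9, above all libraries of sheep brain at 24.2. Sheep brain overlapped cattle brain at 20.2, and goat and sheep muscle, far below, overlapped each other.

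Reads assigned to other models nearby were counted in each species. No exonic base of any of the 4 genes was covered by another gene model. The span of SLC16A6 overlapped that of ARSG in cattle and goat and that of PRKAR1A in sheep. In cattle muscle ARSG held 605, 1605 and 1483 counts against 6372, 24148 and 5886 for SLC16A6, and in goat muscle 150, 175 and 153 counts. PRKAR1A, a regulatory subunit of protein kinase A, held 7078 to 7526 counts in sheep muscle. No unmatched model lay between ARSG and AMZ2, the neighbours of SLC16A6 in all 3 species.

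Unmatched models between the flanking genes held few muscle reads. Between RNF212B and ACIN1, around SLC7A8, they held 9, 37 and 23 counts in cattle muscle, 11, 15 and 12 in sheep muscle, and 0, 0 and 3 in goat muscle. Around MSRA, between PRSS55 and KIF13B, they held at most 9 counts in any muscle library. Around GREB1, between LPIN1 and E2F6, they held 6 to 40 counts in cattle muscle, 29 to 85 in sheep muscle and 13 to 18 in goat muscle. In brain the same models held far more, 1431 to 1558 counts in cattle, 1973 to 4134 in sheep and 1795 to 4086 in goat, beside 47 to 347 for GREB1 itself, and their part in its brain difference was not tested. Adding the muscle counts to GREB1 gave a ratio of cattle over goat muscle of 70.4, in place of 108. LPIN1, a phosphatidate phosphatase, itself held 18492 to 30812 counts in cattle muscle, 4839 to 7134 in sheep muscle and 351 to 2055 in goat muscle.

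Likeness of pattern was measured as Pearson's r of log2(CPM per kb + 0.1) over the 18 libraries, which share species, tissue and gene model. The 9 muscle libraries chose the 4 genes for 1 shared pattern, which largely sets the r among them. Among the 4 genes r was 0.93 for SLC16A6 with SLC7A8, 0.89 for SLC7A8 with GREB1, 0.88 for SLC16A6 with GREB1, and 0.56 to 0.77 for MSRA with the others. For SLC16A6, IRAK2, a kinase of interleukin-1 signalling, and YIPF2, a Golgi membrane protein, came next after the gene most alike, both with r of 0.95. For SLC7A8 the most alike were CAMKMT (0.93), SLC16A6 (0.93) and SEMA4D (0.92), and for GREB1 the RNA helicase DHX8 (0.96), the autophagy kinase ULK1 (0.95) and UNK (0.93). For MSRA they were the condensin subunit NCAPG2 (0.96), KAT14 (0.95) and the Wnt enhancer RSPO2 (0.95).

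Other amino acid carriers were looked at beside SLC7A8. This list and those below were chosen with earlier results of these data known. Their tests in muscle are therefore not independent of that choice. SLC43A2 here and SLC16A9 below themselves exceeded the 10-fold limit against both species. Of 13 tested, 3 were called higher and 1 lower in cattle than in sheep muscle, where 12.7% and 16.4% of all genes were, and 4 higher and 1 lower than in goat muscle, where 16.1% and 17.0% were. The median log2 difference of the list was 0.41 against sheep and 0.999 against goat, beside -0.06 and 0.02 over all genes. SLC43A2, which carries large neutral amino acids, held 319 ± 43.4 CPM per kb in cattle muscle, 18.02 ± 8.66 in sheep muscle and 26.0 ± 13.8 in goat muscle (log2 4.15 ± 0.38 and 3.62 ± 0.37, edgeR, BH adjusted p = 1.15e-06 and 2.17e-06).

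SLC3A2, the heavy chain that pairs with SLC7A8, held 112 ± 36.7 CPM per kb in cattle muscle, 25.0 ± 2.25 in sheep muscle and 22.4 ± 2.95 in goat muscle. It was higher in cattle by 2.17 ± 0.37 and 2.33 ± 0.38 on the log2 scale (edgeR, BH adjusted p = 0.000341 and 0.000143). That difference was larger in muscle than in brain by 2.44 against sheep and 1.59 against goat (edgeR interaction, BH adjusted p = 0.00381 and 0.0475), where 19.8% and 13.2% of all genes were called to differ between the tissues. The value against sheep rests on sheep brain at 67.6 ± 46.8 CPM per kb, from 39.4 to 122. No value with libraries left out is given for it. SLC7A1, a carrier of cationic amino acids, was higher as well, at 9.64 ± 0.933 CPM per kb against 1.30 ± 0.186 in sheep and 1.25 ± 0.714 in goat. SLC7A10, which carries small neutral amino acids, was lower, at 1.59 ± 1.05 CPM per kb in cattle muscle against 12.9 ± 6.61 in sheep and 17.8 ± 6.05 in goat. SLC7A5, the other main light chain of SLC3A2 for large neutral amino acids, held 1.45 ± 0.144, 0.981 ± 0.109 and 0.759 ± 0.296 CPM per kb in cattle, sheep and goat muscle and was not called.

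Of 13 monocarboxylate carriers tested beside SLC16A6, 2 were called higher and 2 lower in cattle than in sheep muscle, beside 12.7% and 16.4% of all genes, and 1 higher and 1 lower than in goat muscle, beside 16.1% and 17.0%. The list's median log2 difference was 0.31 and 0.30. SLC16A9, a carnitine carrier, held 5.85 ± 1.15 CPM per kb in cattle muscle, 0.151 ± 0.0757 in sheep muscle and 0.149 ± 0.0608 in goat muscle (log2 5.27 ± 0.68 and 5.28 ± 0.66, edgeR, BH adjusted p = 2.87e-05 and 1.40e-05). It was also called higher in cattle brain, by 2.01 over sheep and 2.24 over goat (edgeR, BH adjusted p = 0.0132 and 0.00679). The lactate carriers SLC16A1 and SLC16A3 and their chaperone BSG were not called. For cattle minus goat muscle BSG passed the p threshold and missed the fold threshold, at 0.98 (edgeR, BH adjusted p = 0.0195). SLC16A3 held 48.8 ± 34.7 CPM per kb in cattle muscle, 145 ± 41.8 in sheep muscle and 39.2 ± 21.4 in goat muscle. Its log2 difference of cattle minus sheep was -1.57 and missed the p threshold (edgeR, BH adjusted p = 0.0510).

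Of 7 genes tested around MSRA, 1 was called higher and 1 lower in cattle than in sheep muscle, beside 12.7% and 16.4% of all genes, and 2 higher and 1 lower than in goat muscle, beside 16.1% and 17.0%. TXNIP, which binds and inhibits thioredoxin, held 1546 ± 115 CPM per kb in cattle muscle, 633 ± 131 in sheep muscle and 600.4 ± 66.0 in goat muscle (edgeR, BH adjusted p = 0.0106 and 0.00642), calls that were lost with library totals alone. MSRB2, a mitochondrial reductase of the other methionine sulfoxide form, held 17.5 ± 4.75, 35.2 ± 12.1 and 8.72 ± 3.96 CPM per kb in cattle, sheep and goat muscle, called lower than sheep and higher than goat at log2 differences of -1.01 and 1.01 (edgeR, BH adjusted p = 0.0254 and 0.0223), and neither call held with relative log (RLE) scaling. TXNRD2, the mitochondrial thioredoxin reductase, was lower in cattle than in goat muscle by 1.65 ± 0.39 on the log2 scale, at 14.1 against 44.4 CPM per kb (edgeR, BH adjusted p = 0.00310). For cattle minus sheep muscle TXNRD2 was not called, at -0.59, and sheep muscle was also called lower than goat muscle, at -1.06. MSRB3 at 135 ± 2.65, 118 ± 22.8 and 75.2 ± 13.0 CPM per kb was not called.

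Of 7 genes tested around oestrogen and androgen response, 0 were higher and 2 lower in cattle than in sheep muscle (12.7% and 16.4% of all genes), and 1 higher and 2 lower than in goat muscle (16.1% and 17.0%). In that list 2 genes, ESR2 and IGFBP4, were lower against both species. ESR2, an oestrogen receptor, had 0 counts in cattle muscle, 181 in sheep muscle and 17 in goat muscle over 3 libraries, at least 43.0-fold lower than sheep and 6.21-fold lower than goat with a floor of 3 counts over the group that covers counting error only. ESR1, the receptor that human GREB1 answers to, held 5.50 ± 0.747, 11.8 ± 1.03 and 4.19 ± 3.05 CPM per kb in cattle, sheep and goat muscle and was not called (edgeR, BH adjusted p = 0.155 and 0.631).

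For taurine and ketone bodies, the cargo linked to SLC16A6, 2 of 8 genes tested were higher and 0 lower in cattle than in sheep muscle (12.7% and 16.4% of all genes), and 3 higher and 2 lower than in goat muscle (16.1% and 17.0%). Of these 3, CSAD, an enzyme of taurine synthesis, lost its call with RLE scaling and with library totals alone. BDH2, named as a hydroxybutyrate dehydrogenase, held 67.3 ± 21.3 CPM per kb in cattle muscle, 16.0 ± 1.78 in sheep muscle and 13.0 ± 6.01 in goat muscle (log2 2.08 ± 0.36 and 2.37 ± 0.36, edgeR, BH adjusted p = 0.000345 and 8.57e-05). CDO1, which starts taurine synthesis from cysteine, was higher in cattle than in goat muscle by 3.12 ± 0.47 (edgeR, BH adjusted p = 7.45e-05). Against sheep muscle CDO1 was not called, at 0.49, and sheep muscle was itself called higher than goat muscle, by 2.63. ACAT1, a mitochondrial thiolase of ketone use, was lower in cattle than in goat muscle by 2.17 ± 0.20 (edgeR, BH adjusted p = 8.82e-07). For cattle minus sheep muscle ACAT1 was not called, at -0.29, and sheep muscle was also called lower than goat muscle, at -1.88. SLC6A6, the taurine importer, held 0.572 ± 0.384, 0.466 ± 0.135 and 1.13 ± 0.364 CPM per kb in cattle, sheep and goat muscle and was not called.

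Markers were read as summed CPM per kb over each list. Muscle fibre markers (3 of 4 matched) summed to 75231 to 78601 in cattle muscle, 99247 to 117606 in sheep muscle and 36550 to 46049 in goat muscle, and to at most 16.3 in any brain library. Slow fibre markers (5 of 5) summed to 6372 to 18312, 3044 to 4171 and 7942 to 19160 in cattle, sheep and goat muscle, and endothelial markers (4 of 4) to 65.9 to 76.2, 195 to 203 and 108 to 215. Fibroblast markers (4 of 5) ran from 151 to 461, from 257 to 404 and from 159 to 204, and adipocyte markers (2 of 5) from 3.55 to 19.6, from 5.77 to 33.7 and from 0.310 to 1.61. Neuron markers were near 0 in muscle, at most 0.994 in cattle, 0.255 in sheep and 0.608 in goat. MYF5, the only satellite cell marker matched, held 1.14 to 1.89 CPM per kb in cattle muscle, 6.83 to 10.4 in sheep muscle and 3.23 to 5.14 in goat muscle.

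In brain, neuron markers (5 of 5) summed to 1504 to 1749 in cattle, 569 to 1743 in sheep and 1196 to 1821 in goat. Oligodendrocyte markers (3 of 4) ran from 710.2 to 1127, from 1336 to 1412 and from 4285 to 28145, with medians of 1111, 1385 and 4669. The highest goat value thus came from a single library. Astrocyte markers (3 of 3) ran from 559 to 953, from 744 to 1562 and from 384 to 2118. In such bulk tissue more cells of a type and more RNA per cell cannot be told apart, and the part of these markers in the levels of the 4 genes was not tested.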

How the data were processed

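Per the labels, RNA of frozen tissue was selected for poly(A) before sequencing. The submitters' processing notes name Trimmomatic 0.39, STAR 2.7.6 and featureCounts, with no version, and ARS-UCD1.2 as the only build. For the sheep and goat builds, strandedness and reads with several placements, a statement is not given in the sources used here, so reads of overlapping models on opposite strands could not be told apart. The deposited values are raw read counts per gene on each species' own Ensembl models.

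Cattle models were named by position from a RefSeq table on a later build, where the shared span was 0.5 or more of the union and the runner-up reached no more than 0.5 of the best overlap. Names were given to 20139 models. Before models that shared a name were dropped, 39.6% of those named had an identical start or end. Sheep and goat partners shared 2 or more pairs of adjacent exon lengths with cattle (first pass, 9086 genes in 3 species), or lay among matched neighbours, 5 per side and up to 15 ranks apart, with 1 or more equal exon lengths (second pass, 4174). Gene order was kept in 99.3%, 98.6% and 98.8% of first-pass pairs.

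The counts entered 1 model in edgeR 4.0.16 (robust quasi-likelihood, filterByExpr, TMM, exonic length as offset, 6 groups over 18 libraries) in R 4.3.3. In data simulated for cattle against sheep brain with 11981 genes, 47% of changes of log2 1.5, 87.9% of log2 3 and 0.0255% of unchanged genes were called. The simulation gave all groups the same base level per gene and changed few genes, in cattle brain only, so these rates may not hold for the measured data. Library totals were 20730803 to 58514630 counts, and counting error and spread between libraries were not separated. Alternatives were relative log (RLE) and total-count scaling, DESeq2 1.42.0, limma-voom (limma 3.58.1), no filter, no length offset, first-pass matches, fewer groups, a replicate block and leaving out libraries, the last also for muscle over brain, which was added after seeing the data.

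Groups came from the sample titles. The 4 genes and all lists were chosen with earlier results of these data known. Genes other than the 4 were named by a rule: up to 4 called members per list and comparison, members not called as values, the 3 genes most alike to each of the 4, those beside the 10-fold limit, and neighbours. Some genes that the rule admits are not reported here. Replicate letters were not used to pair libraries in the main model. No pair of groups compared had all same-letter correlations above 0.1. Sheep brain and goat muscle, which were not compared and differ in species, had 0.316, 0.440 and 0.481. These correlations therefore cannot show whether libraries of a letter share an animal.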

Additional observations from a re-analysis of the deposited data

Results flagged for a closer look

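MSRA gave opposite directions in the tissues: every cattle muscle library lay above every goat muscle library, while every cattle brain library lay below every goat brain library, with a log2 ratio of brain means of -0.91. This difference between tissues was not tested, because the muscle direction chose the gene, and the brain direction depended on the length correction.

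Among genes of the lists called in muscle and with counts in every group, several species differences were called to differ between muscle and brain themselves (edgeR interaction, BH adjusted p below 0.05 and at least 1 on the log2 scale), as were 19.8% of all genes for cattle minus sheep and 13.2% for cattle minus goat. The difference of cattle minus sheep was larger in muscle than in brain by 2.44 for SLC3A2, 2.68 for SLC43A2, 3.26 for SLC16A9 and 1.82 for BDH2. For cattle minus goat it was larger in muscle by 1.59 for SLC3A2, 2.31 for SLC43A2, 3.04 for SLC16A9, 2.45 for SLC7A1 and 1.92 for SLC43A1. The SLC7A1 value lay at the edge of the p threshold (edgeR interaction, BH adjusted p = 0.0499975). For cattle minus sheep SLC7A1 was not called, at 1.80 (edgeR interaction, BH adjusted p = 0.117). The difference was lower in muscle than in brain for SLC16A10 (-3.05, sheep), SLC7A10 (-2.30, sheep; -3.67, goat) and ACAT1 (-1.35, goat). No values with libraries left out are given for these differences between tissues.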

How the results depend on the processing

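The 12 brain comparisons of the 4 genes were repeated 193 times in all, over the alternatives of each: 169 repeats kept direction and call, 18 lost the call, 4 gained it and 2 turned sign. Without the length offset MSRA turned to 0.062 (brain, cattle minus goat), 0.17 (brain, sheep minus goat) and 0.57 (muscle, sheep minus goat), SLC7A8 stood at 0.86 (brain, cattle minus goat) and -1.45 (brain, sheep minus goat), GREB1 at 1.18 (brain, cattle minus sheep), and MSRA in muscle at 5.14 over sheep and 5.72 over goat. Undivided by length, SLC7A8 held 496, 1232.5 and 1147 CPM in cattle muscle and 21.7, 8.50 and 10.8 in sheep muscle. Its muscle ratio over sheep therefore also depends on the gene models. Library totals alone moved the median of all genes by -0.76, -0.64 and 0.11 (brain: cattle minus sheep, cattle minus goat, sheep minus goat) and by -0.58 and -0.59 (muscle: cattle minus sheep, cattle minus goat). Under them SLC7A8 stood at 0.80 over sheep and 0.65 over goat in brain, GREB1 at 0.70 over sheep in brain and 6.12 over goat in muscle, and MSRA at -1.01 and -1.56 in brain and 4.39 and 4.10 in muscle. Relative to that median SLC7A8 was 1.60 over sheep against 1.62 with TMM. Of 14 list genes called in muscle against sheep and 18 against goat, none turned sign under either scaling, but 1 (MSRB2) and 2 (CSAD and MSRB2) lost the call with RLE, and 2 (SLC16A14 and TXNIP) and 5 (CSAD, CTSD, MSRB2, SLC43A1 and TXNIP) with library totals. Counts per list moved by over 1.5 times in 177 of 980 repeats. GREB1 in brain, cattle minus sheep, lost its call with limma-voom (1.53), first-pass matches (1.41) and the groups compared only (1.498). Leaving out libraries gave 1.17 to 2.09 there, 1.14 to 1.504 for SLC7A8 and -1.05 to -0.77 for MSRA (brain, cattle minus goat). GREB1 with nearby unmatched models gave 6.14 in muscle over goat. The cause of these shifts was not tested.

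Genes called between cattle and sheep brain numbered 3070, or 4901 with library totals, 2017 with first-pass matches (fewer genes) and 1272 with the groups compared only, and between sheep and goat brain 2129, or 489 with the groups compared only. First-pass matches gave 1728 in place of 2734 (brain, cattle and goat), 1711 in place of 2725 (muscle, sheep and goat), 2342 in place of 3532 and 2669 in place of 4020 (muscle, cattle against sheep and goat). The replicate block changed no call of the 4 genes; SLC16A6 in brain was 2.93 over sheep with it. Low counts limit the 4 genes in goat muscle, at 25 to 65 reads for GREB1 and SLC16A6, 57 to 67 for MSRA and 60 to 149 for SLC7A8.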

Other observations

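Of the 215 genes above 10-fold in cattle muscle, 33 (15.3%) were called higher in cattle brain than in both sheep and goat brain, as SLC16A6 and SLC7A8 were, and 7 were called lower than both. Over all 12128 genes 439 (3.62%) were called higher in both and 860 lower. Brain and muscle values of a species share its gene models, and these counts are descriptions. In sheep muscle 93 genes exceeded 10-fold of both other species, and in goat muscle 114.

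In brain, TXNRD2, of the list around MSRA, was called lower in cattle, at 9.19 ± 0.536 CPM per kb in cattle brain against 57.1 ± 47.3 in sheep and 27.9 ± 2.06 in goat (log2 -2.64 and -1.60, edgeR, BH adjusted p = 0.000216 and 0.00586). The sheep brain libraries were uneven, from 29.4 to 112 CPM per kb. SLC43A2 was called higher in cattle brain, at 39.5 CPM per kb against 14.3 and 15.9.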
